A study of Mus musculus with 10 samples.

Results

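The slow fibre genes are 10 genes of slow-twitch skeletal muscle, chosen by symbol (Myl2, Myl3, Tnnt1, Tnni1, Tnnc1, Tpm3, Myoz2, Atp2a2, Casq2 and Mb), and all 10 were found among the 21956 genes of the deposited table. Poly(A) RNA of the gastrocnemius, a calf muscle made mostly of fast fibres, was sequenced from wild-type (WT) mice in 5 samples labelled HLI and 5 labelled Sham. The labels do not expand HLI, taken here to mean hindlimb ischaemia, and state no time after surgery, age or strain. Whether each sample is its own animal is not stated either, so p-values cover the spread among the deposited samples, possibly a technical one. The study's title concerns FGF13 of endothelial cells, and setting HLI against Sham asks how muscle transcripts differ between the conditions.

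Slow fibres contract slowly, resist fatigue and rely on oxidative metabolism, and they carry their own versions of many contractile proteins. The slow versions are encoded by genes separate from those used in fast fibres, and several of them also serve in the heart. Nerve activity, acting through calcium, calcineurin and the factors NFAT and MEF2, keeps the slow programme on in adult fibres. Some slow genes are also transcribed in embryonic and regenerating fibres before fibre type is settled.

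Promoters of 4 members are shown: those of Myl3 and Casq2, which lay farthest apart in the comparison, and those of Tnnc1 and Myoz2, which with them are the members whose window held a MEF2 site, a CArG box or an MCAT box. Each run is the 250 bases before the annotated start, 5′ to 3′ on the strand of the gene, from RefSeq on GRCm38.p6, and capitals mark matches to these 3 motifs, while E-boxes stay in lower case. The windows lie at chr9:110763428-110763677 on the plus strand for Myl3, chr14:31208062-31208311 on the plus strand for Tnnc1, chr3:102086165-102086414 on the plus strand for Casq2 and chr3:123034988-123035237 on the minus strand for Myoz2.
Myl3: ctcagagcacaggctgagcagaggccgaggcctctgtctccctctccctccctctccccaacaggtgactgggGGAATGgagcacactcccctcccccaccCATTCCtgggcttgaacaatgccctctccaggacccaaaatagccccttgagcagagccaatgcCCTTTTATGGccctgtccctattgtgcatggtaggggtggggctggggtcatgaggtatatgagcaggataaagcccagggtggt
Tnnc1: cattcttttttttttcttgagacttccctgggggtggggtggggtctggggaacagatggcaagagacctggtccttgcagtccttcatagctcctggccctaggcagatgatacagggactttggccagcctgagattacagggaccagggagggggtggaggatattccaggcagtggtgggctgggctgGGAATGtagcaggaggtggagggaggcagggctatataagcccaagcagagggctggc
Casq2: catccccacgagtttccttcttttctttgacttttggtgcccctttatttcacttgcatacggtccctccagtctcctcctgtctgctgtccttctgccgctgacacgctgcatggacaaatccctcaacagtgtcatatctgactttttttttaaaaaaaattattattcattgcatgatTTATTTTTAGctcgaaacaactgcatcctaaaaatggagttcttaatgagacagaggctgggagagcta
Myoz2: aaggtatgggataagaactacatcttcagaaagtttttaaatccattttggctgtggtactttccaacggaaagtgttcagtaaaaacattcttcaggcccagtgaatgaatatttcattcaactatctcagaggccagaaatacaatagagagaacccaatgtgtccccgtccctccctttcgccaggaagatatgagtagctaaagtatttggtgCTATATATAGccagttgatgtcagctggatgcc
In Myl3 the capitals mark MCAT boxes (CATTCC, bound by TEAD factors), from -177 to -172 and from -149 to -144, and a CArG box (the site of serum response factor) from -85 to -76, counted back from the start. Tnnc1 held an MCAT box from -58 to -53, Casq2 a MEF2 site from -69 to -60 and Myoz2 a MEF2 site from -33 to -24. Motifs were searched on both strands, and none of the matches in capitals overlapped. Of the members, 9 had 1 or more RefSeq promoters, and among these genes a MEF2 site stood before 2, a CArG box before 1, an MCAT box before 2 and a match to the TATA box (TATAAA) before 2. Over all genes the shares with such a match were 1.99% for the MEF2 site, 1.62% for the CArG box, 14.4% for the MCAT box and 14.3% for the TATA box. The TATAAA match lay from -30 to -25 in Tnnt1 but from -216 to -211, on the opposite strand, in Myl2. An E-box (CANNTG, bound by myogenic factors) stood before all 9 members, against 69.3% of all genes. These matches are descriptions of the windows.

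Levels can be compared between genes in TPM, the deposited unit that divides reads by transcript length and by library. Mb, which encodes the oxygen carrier myoglobin, was the most abundant member, with 3867 ± 760 TPM in HLI and 4362 ± 284 TPM in Sham (SD, n = 5 each). In Sham it was followed by the myosin light chain genes Myl3 (913 ± 273 TPM) and Myl2 (888 ± 137 TPM), which overlapped each other. Then came Tnnt1, Tpm3, Myoz2, Tnnc1 and Atp2a2, with means of 248 to 403 TPM, in which each gene's range of libraries overlapped that of the next. Tnni1 (179 ± 15.2 TPM) and Casq2 (55.7 ± 30.1 TPM) lay below them without overlapping their neighbours in the order. In HLI the order began Mb, Myl2, Myl3 and ended Atp2a2 (216 ± 41.0 TPM), Tnni1 (208 ± 71.6 TPM) and Casq2 (114.5 ± 68.9 TPM).

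Each sample was then compared in CPM, counts relative to library size, scaled by TMM, which corrects for a few genes taking a large share of a library. Total estimated counts ran from 16556385 to 22136299 per library, and every member passed the filter on low counts, with at least 650 counts in every library. Some libraries stood apart from their label: Myh3, the embryonic myosin heavy chain of new fibres, was at 164 CPM in Sham replicate 1 against 3.97 to 5.63 CPM in the other Sham libraries. HLI replicate 1 was at 7.71 CPM of Myh3, while the other HLI libraries had 79.95 to 442 CPM. HLI replicate 3 had the lowest sum of 10 general fibre markers, 32415 CPM, against 54280 to 74010 CPM for the rest of HLI and 68240 to 86780 CPM in Sham. In bulk muscle, fewer fibres of a kind and less RNA per fibre cannot be told apart. Since several members are also heart genes, heart-defining markers were read in the same libraries: Nppa and Myl7 were at 0 in all 10, Nppb, Tnni3, Mybpc3 and Gata4 stayed at or below 0.41 CPM, and Myh6 at or below 2.86 CPM. The other 3 of the 10 heart markers, Actc1, Myl4 and Tnnt2, are also genes of new skeletal fibres and were present. Actc1 had 589.7 to 1993 CPM in HLI and 311 to 1694 CPM in Sham, Myl4 had 4.41 to 171 CPM in HLI and 4.39 to 28.3 CPM in Sham, and Tnnt2 had 5.07 to 55.0 CPM in HLI and 1.37 to 6.90 CPM in Sham.

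Of the 10 slow fibre genes, 0 passed the test of HLI against Sham (quasi-likelihood test of edgeR, p under 0.05 after Benjamini-Hochberg adjustment over 13404 genes), where the background was 0% of all genes. DESeq2 called 42 of all genes and 0 members, and limma on TPM called 0 of both. At an unadjusted p under 0.05 edgeR counted 16.9% of all genes, 6.15% lower and 10.7% higher in HLI. Among the members, Myl3 and Myoz2 were lower and Casq2 higher at that level, 3 of 10; with 1 library left out the number ran from 0 (without Sham replicate 4 or 5 or HLI replicate 5) and 1 (without Sham replicate 2 or HLI replicate 1) to 6 (without HLI replicate 4). The share of all genes at that level also moved: leaving out HLI replicate 4 gave 30.9%, HLI replicate 1 gave 17.4% and HLI replicate 5 gave 11.6%, while Sham replicate 2 gave 8.67%, Sham replicate 4 gave 10.4% and Sham replicate 5 gave 8.76%. The log2 fold changes of 8 members were below 0, against 46.2% of all genes, and the median of the 10 was -0.35, against 0.03 over all genes tested. The groups separated without overlap in 0 of 10 members, against 1.65% of all genes, 0.873% with HLI lower and 0.776% with HLI higher. Without HLI replicate 3 the median of the members was -0.22.

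**Figure D1:**
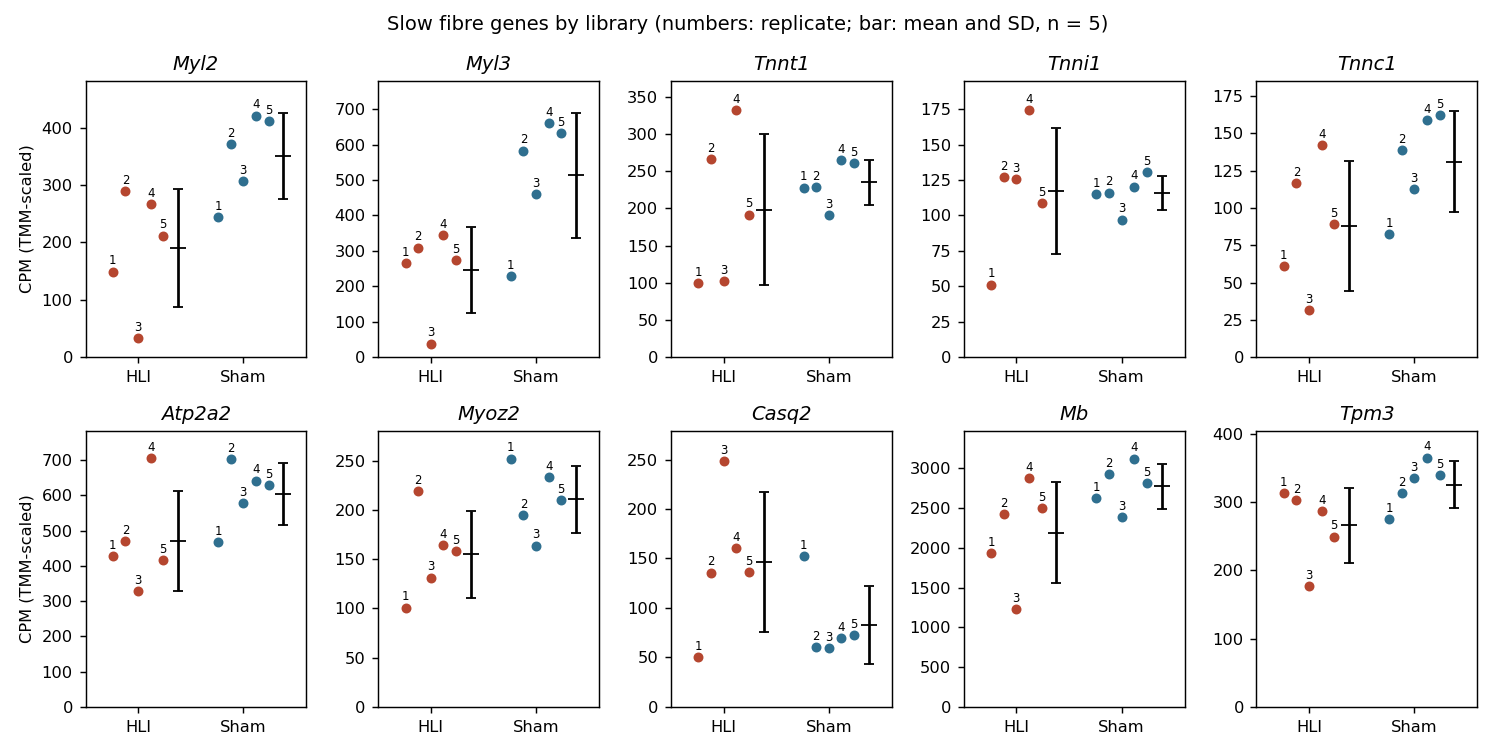
Level of each slow fibre gene in CPM (y axis, linear, from 0) in the 5 HLI and the 5 Sham libraries, with replicate numbers at the points and the mean and SD beside them. HLI replicate 3 is lowest for Myl2, Myl3, Tnnc1, Atp2a2, Mb and Tpm3, whereas Casq2 is highest there at 248 CPM.

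The ventricular and slow myosin light chains had the lowest log2 fold changes of the group. Myl3, the essential light chain of slow fibres, had 265, 309, 38.5, 344 and 275 CPM in HLI replicates 1 to 5. In Sham replicates 1 to 5 it had 229, 583, 461, 660 and 632 CPM. All HLI libraries thus lay below Sham replicates 2 to 5, and Sham replicate 1 lay below 4 of the HLI libraries. The log2 fold change was -1.06 (SE 0.46, edgeR adjusted p = 0.29), and between -1.25 and -0.78 when any 1 library was left out.

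Myl2, the regulatory light chain of slow fibres, had 149, 289, 33.3, 267 and 212 CPM in HLI replicates 1 to 5. The Sham libraries had 244, 371, 307, 421 and 412 CPM. Here 3 HLI libraries lay below every Sham library, HLI replicates 2 and 4 lay between Sham replicates 1 and 3, and HLI replicate 3 was again far below the rest. The log2 fold change was -0.88 (SE 0.42, edgeR adjusted p = 0.30). On the TPM scale the highest HLI library exceeded the lowest by a factor of 6.88 for Myl2 and 6.16 for Myl3, against 1.48 and 2.43 in Sham.

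The 3 subunits of slow troponin, the calcium switch of the thin filament, did not share one pattern. Tnnc1, the calcium-binding subunit of slow and heart muscle, had 61.0, 117, 31.6, 142 and 89.3 CPM in HLI replicates 1 to 5. In Sham it had 82.4, 139, 113, 159 and 162 CPM, and its lowest libraries were HLI replicates 3 and 1, as for Myl2. The log2 fold change for Tnnc1 was -0.57 (SE 0.34, edgeR adjusted p = 0.36) and became -0.36 when HLI replicate 3 was left out.

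Tnni1, the inhibitory subunit of slow fibres, had 51.1, 127, 125.8, 174 and 108 CPM in HLI replicates 1 to 5, against 115, 116, 97.0, 120 and 131 CPM in Sham. Unlike Myl3, its CPM stood within the Sham range in HLI replicate 3, and its lowest library was HLI replicate 1. On the TPM scale HLI replicate 3 was the highest library for Tnni1, at 271 TPM against at most 194 TPM in Sham. There 3 HLI libraries lay above every Sham library. Tnnt1, the tropomyosin-binding subunit of slow fibres, had 99.5, 266, 102, 332 and 192 CPM in HLI against 228, 229, 191, 265 and 261 CPM in Sham. For Tnnt1, HLI replicates 1 and 3 were both low and HLI replicates 2 and 4 lay above every Sham library. The log2 fold change of Tnni1 was 0.02 (SE 0.25, edgeR adjusted p = 0.97), and its sign turned with the scaling, as with DESeq2's size factors (-0.0027). It was -0.24 for Tnnt1 (SE 0.30, edgeR adjusted p = 0.65), and leaving out HLI replicate 1 or 3 gave -0.08 for Tnnt1, while leaving out HLI replicate 4 gave -0.53. HLI libraries spanned a factor of 2.91 in Tnni1 and 2.77 in Tnnt1 on the TPM scale, against 1.23 and 1.24 in Sham.

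Casq2, which encodes the calsequestrin that stores calcium in heart and slow fibres, stood opposite to the light chains. It had 50.7, 136, 248, 160 and 136 CPM in HLI replicates 1 to 5. In Sham it had 152, 60.2, 59.4, 69.5 and 72.5 CPM. Except for replicate 1 in each group, the HLI libraries were all higher than the Sham libraries, while HLI replicate 1 was the lowest of the 10 and Sham replicate 1 lay among HLI replicates 2, 4 and 5. The log2 fold change was 0.82 (SE 0.37, edgeR adjusted p = 0.30), with 0.55 when HLI replicate 3 was left out and 1.16 when Sham replicate 1 was.

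The 5 libraries with Casq2 above 135 CPM were the 5 with Myh3 at 79.95 CPM or more, and in the other 5 Casq2 lay between 50.7 and 72.5 CPM and Myh3 between 3.97 and 7.71 CPM. Without replicate 1 of both groups, the log2 fold change for Casq2 was 1.38 (SE 0.20, adjusted p = 0.034 by edgeR), which made it 1 of 54 genes called. Those 2 libraries were left out because earlier results had shown their Myh3 levels, with which Casq2 moved, so that call is no independent evidence. The part of new fibres in the Casq2 values was not tested.

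**Figure D2:**
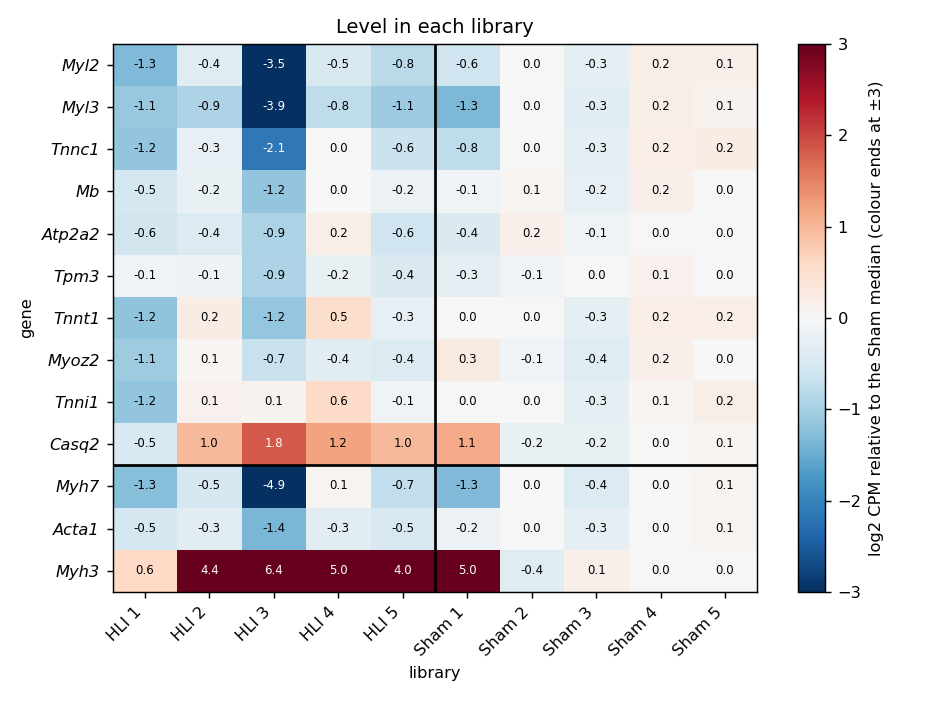
Log2 CPM of the 10 slow fibre genes, and of Myh7, Acta1 and Myh3 below the line, in each HLI and Sham library relative to the median of the 5 Sham libraries (colour ends at ±3). HLI replicate 3 stands at -3.9 for Myl3 and -4.9 for Myh7 but at 1.8 for Casq2, and Sham replicate 1 shares the high Casq2 and Myh3 of HLI replicates 2 to 5.

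Atp2a2, the pump that returns calcium to the store in slow fibres and heart and that has a further form in most cells, had 328 to 707 CPM in HLI and 467 to 702 CPM in Sham. In 3 HLI libraries it lay below all Sham libraries, and in HLI replicate 4 it lay barely above the highest of them. In TPM it reached at most 287 in HLI, below the Sham maximum of 291. Its log2 fold change was -0.36 (SE 0.20, edgeR adjusted p = 0.33); leaving out HLI replicate 4 gave -0.57, at an adjusted p of 0.081. Myoz2, a Z-disc protein that binds calcineurin, had 100.7, 219, 131, 164 and 158 CPM in HLI replicates 1 to 5. The Sham libraries had 251.95, 194, 164, 233 and 210 CPM of Myoz2, so 3 HLI libraries lay below all of them, and no HLI library reached Sham replicate 1. Its log2 fold change was -0.44 (SE 0.19, edgeR adjusted p = 0.29), and -0.27 on unscaled TPM.

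Mb had 1936, 2424, 1228, 2876 and 2498 CPM in HLI and 2627, 2930, 2389, 3122 and 2812 CPM in Sham. HLI replicates 1 and 3 were below every Sham library and the others within the Sham range. Its log2 fold change was -0.34 (SE 0.21, edgeR adjusted p = 0.37), and -0.19 without HLI replicate 3.

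Tpm3, which encodes the slow tropomyosin and, from other promoters and exons, tropomyosins of non-muscle cells, had 177 to 314 CPM in HLI and 275 to 365 CPM in Sham. HLI replicates 3 and 5 lay below all Sham libraries. The log2 fold change was -0.29 (SE 0.16, edgeR adjusted p = 0.33), and -0.18 without HLI replicate 3. Tpm3 was the 1 member whose counts were not whole in any library, as were those of its copy Tpm3-rs7, which held 2.39 to 13.2 counts, so its reads were partly shared with other rows.

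The deposited TPM and counts also give the transcript length behind each value, a reading added after the data were seen. Count over TPM, set relative to the median gene of a library and to the Sham median, gave Tpm3 an implied length of 131%, 110%, 153%, 100.8% and 119% in HLI replicates 1 to 5. In Sham it gave 117%, 100%, 108%, 98.7% and 98.5%. Tpm3 transcripts thus read as longer on average in HLI replicates 1, 3 and 5 than in any Sham library, and in HLI replicate 3 by the widest margin. The other 9 members stayed between 96.3% and 101.8% in all libraries. The mean log2 difference of Tpm3, HLI minus Sham, was 0.22 (exact two-sided permutation p = 0.0714, unadjusted), larger in size than that of 99.0% of 9130 genes with at least 100 counts in every library. GENCODE M21 lists 7 protein-coding Tpm3 transcripts of 341 to 2233 bases.

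The 6 libraries with the longest implied Tpm3 were also those with the 6 highest sums of 14 macrophage markers. These were HLI replicates 3, 1, 5 and 2 and Sham replicates 1 and 3. Macrophage sums were 3795, 1655, 3432, 910 and 2188 CPM in HLI replicates 1 to 5 and 1782, 890, 1556, 1099 and 714 CPM in Sham replicates 1 to 5. The sum of 10 fibroblast markers ran a similar way only in part. Its 5 highest libraries were HLI replicates 3 (24360 CPM), 1 (14780 CPM), 5 (13770 CPM) and 2 (12080 CPM) and Sham replicate 1 (11490 CPM), the 5 with the longest implied Tpm3. Sham replicate 3, among the 6 with the longest implied Tpm3, had the lowest fibroblast sum of Sham, 8250 CPM. The 6 libraries with the longest implied Tpm3 also had the 6 lowest sums of 10 general fibre markers. Those sums were 32420 to 69080 CPM, against 74010 to 86780 CPM in the remaining libraries. The part of macrophages, fibroblasts or fibre RNA in the Tpm3 values was not tested.

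Each slow gene has a fast counterpart, the gene of the same protein family used in fast fibres, except Mb. The ratio of the pair within a library does not depend on how libraries are scaled, and asks whether slow and fast versions moved apart. All 9 fast counterparts had log2 fold changes below 0, from -0.61 (Myoz1) to -0.36 (Myl1), with a median of -0.51, and 0 passed the edgeR test. At an unadjusted p under 0.05, 4 of the 9 were lower (Myoz1, Tnnt3, Tnni2 and Tpm1), against 6.15% of all genes. Fast transcripts dominated every pair in all libraries. Slow genes stood at 0.675% to 11.7% of their counterpart in HLI and 1.27% to 5.82% in Sham, apart from Myoz2 at 13.7% to 29.1% of Myoz1 in HLI and 14.4% to 24.7% in Sham.

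**Figure D3:**
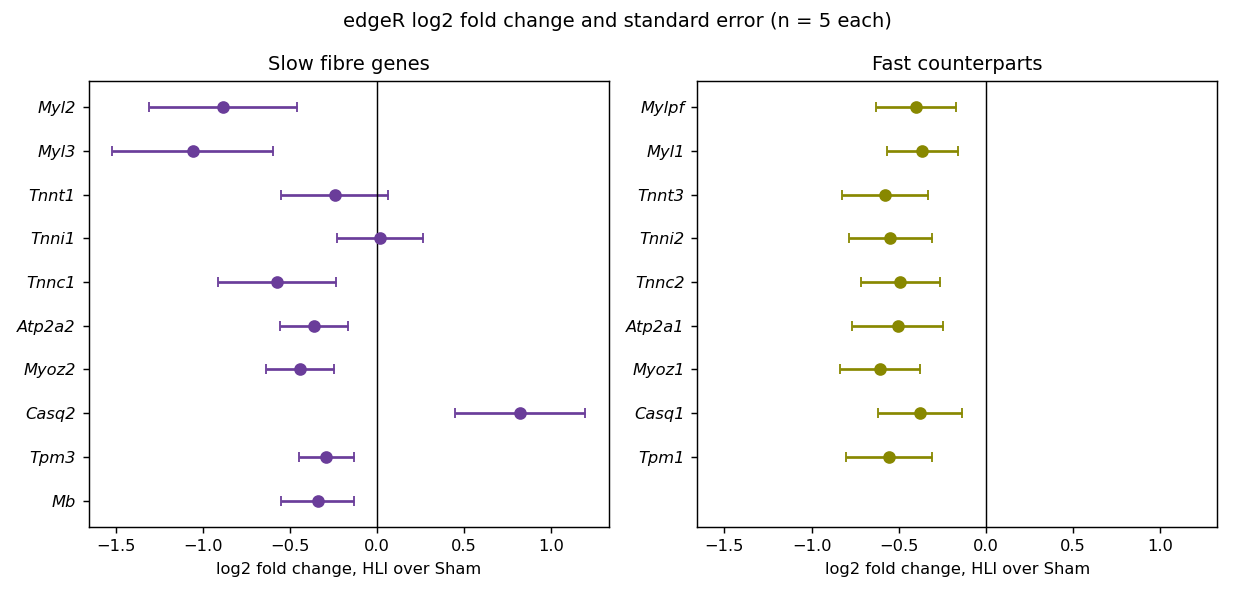
Log2 fold change of HLI over Sham with its standard error (x axis; edgeR, n = 5 each) for the 10 slow fibre genes and for their 9 fast counterparts on the same row. The fast genes lie between -0.61 and -0.36, and the slow genes spread from -1.06 for Myl3 to 0.82 for Casq2.

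Myl3 stood at 3.84%, 3.09%, 0.675%, 3.34% and 3.25% of Myl1 in HLI replicates 1 to 5. In Sham replicates 1 to 5 it stood at 2.33%, 5.47%, 5.66%, 5.13% and 5.07%. HLI libraries were therefore below Sham replicates 2 to 5 and, but for HLI replicate 3, above Sham replicate 1. Myl2 stood at 0.780% to 3.86% of Mylpf in HLI and 3.11% to 5.82% in Sham. The log2 ratio differed, HLI minus Sham, by -0.89 (SE 0.53) for Myl3 over Myl1 (exact two-sided permutation p = 0.0873, adjusted over the 9 ratios 0.262) and by -0.78 (SE 0.46) for Myl2 over Mylpf (exact permutation p = 0.0556, adjusted 0.25). Without HLI replicate 3 these were -0.42 and -0.35.

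Casq2 stood at 1.87%, 3.39%, 11.7%, 3.03% and 4.48% of Casq1 in HLI replicates 1 to 5, against 3.58%, 1.27%, 1.76%, 1.59% and 1.31% in Sham replicates 1 to 5. All HLI libraries were above Sham replicates 2 to 5. The log2 ratio was higher in HLI by 1.18 (SE 0.52, exact two-sided permutation p = 0.0476, adjusted over the 9 ratios 0.25). Without Sham replicate 1 the groups separated fully for the ratios of Myl2, Myl3 and Casq2, with differences of -0.90, -1.12 and 1.44. Each then had the smallest p that 5 against 4 allows, 0.0159 by exact permutation and 0.0476 after adjustment. Sham replicate 1 was the library that broke the separation, so this is no independent evidence, and 0 of the 9 ratios passed when any other library was left out.

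Tnni1 stood at 0.975% of Tnni2 in HLI replicate 1 and 2.10% to 4.30% for HLI replicates 2 to 5, against 1.32% to 1.83% in Sham. Tnnt1 stood at 1.077% of Tnnt3 in HLI replicate 1, with 1.91% to 2.41% for HLI replicates 2 to 5, against 1.51% to 1.89% in Sham. In both pairs 4 of 5 HLI libraries were thus above every Sham library and 1 was below. The log2 differences were 0.52 (SE 0.35) for Tnni1 over Tnni2 and 0.22 (SE 0.22) for Tnnt1 over Tnnt3, with exact permutation p of 0.182 and 0.318. Without HLI replicate 1 they were 0.80 and 0.41, with an exact permutation p of 0.0159 for each and 0.0714 after adjustment. The unadjusted value is the smallest that 4 against 5 allows. HLI replicate 1 was the library that broke the separation in these pairs, so this is no independent evidence. Without HLI replicate 3 the difference of Tnni1 over Tnni2 was 0.26.

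The other pairs overlapped more widely. Differences were -0.18 for Tnnc1 over Tnnc2, 0.16 for Atp2a2 over Atp2a1, 0.18 for Myoz2 over Myoz1 and 0.07 for Tpm3 over Tpm1, with exact permutation p from 0.246 to 0.516. Single libraries set much of these values: without HLI replicate 3 they were -0.03 for Tnnc1, 0.06 for Atp2a2 and 0.03 for Myoz2, and without Sham replicate 1 that of Myoz2 was 0.32. With 1 library left out, Tpm3 over Tpm1 ran from 0.02 (without HLI replicate 1) to 0.15 (without Sham replicate 3). For Tpm3 over Tpm1 the ratio of counts in place of TPM gave 0.30. Of the 9 ratios, 0 passed after adjustment, where the smallest p that 5 against 5 allows is 0.0079.

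**Figure D4:**
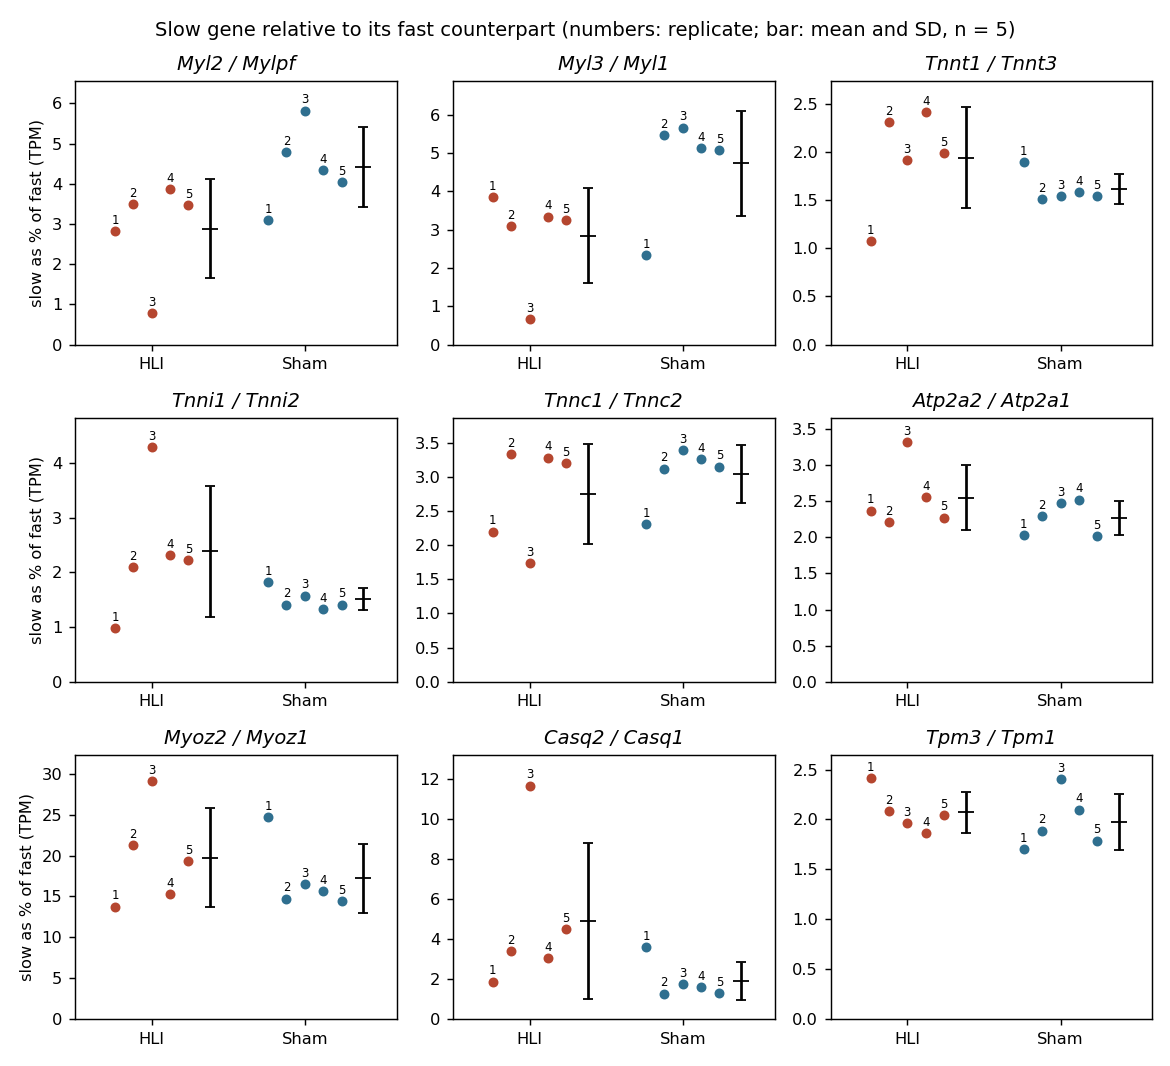
TPM of each slow gene as a percentage of its fast counterpart (y axis, linear, from 0) in the 5 HLI and 5 Sham libraries, with replicate numbers and the mean and SD. HLI replicate 3 is at 0.675% for Myl3 over Myl1 but at 11.7% for Casq2 over Casq1 and 4.30% for Tnni1 over Tnni2.

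How the members varied together was described by Pearson's r of their deviations from the group means of log2 CPM over the 10 libraries, which share depth and scaling, so no p is given. Of 45 pairs, 25 had an r above 0.5 and 8 an r below 0. Myl2, Myl3, Tnnc1 and Mb formed the tightest group, with r of 0.88 to 0.96, or 0.61 to 0.93 without HLI replicate 3. Casq2 had an r of -0.62 with Myl3 and -0.73 with Tpm3, but of 0.71 with Tnni1 and 0.56 with Myoz2. Tnni1 had an r of 0.72 with Tnnt1 and of -0.04 with Myl3. Without HLI replicate 3, Casq2 had an r of -0.45 with Myl3, -0.66 with Tpm3, 0.74 with Tnni1 and 0.78 with Myoz2. Its r with Myl2, Tnnc1 and Mb turned from -0.41, -0.29 and -0.22 to 0.03, 0.11 and 0.35. Tnni1 then had 0.95 with Tnnt1 and 0.185 with Myl3.

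**Figure D5:**
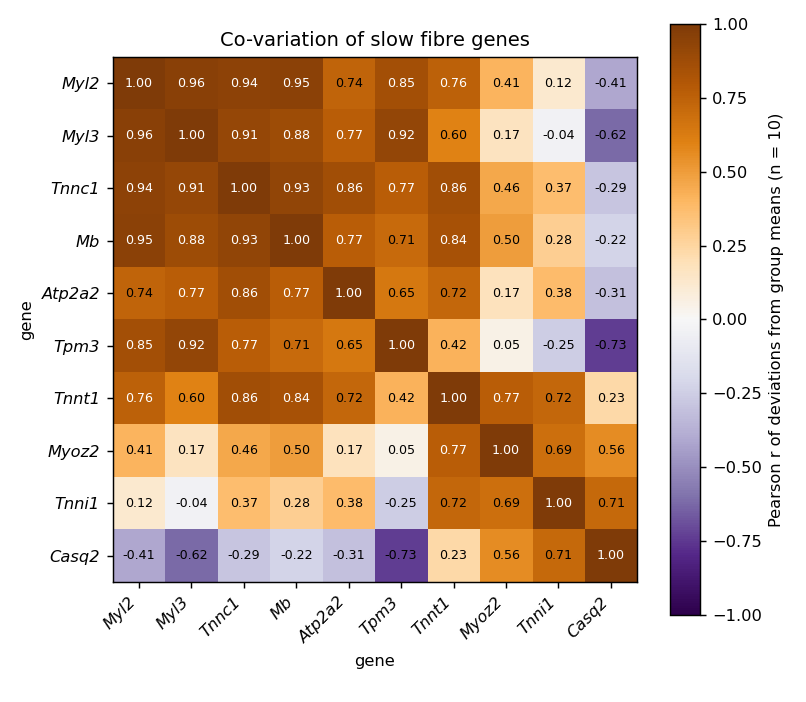
Pearson's r between slow fibre genes, from deviations of log2 CPM from the HLI and Sham group means over 10 libraries. Myl2, Myl3, Tnnc1 and Mb vary together (0.88 to 0.96), whereas Casq2 runs against Tpm3 at -0.73 and with Tnni1 at 0.71.

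Among 8737 other genes with a mean of at least 10 CPM, the gene most like Myl2 in these deviations was Myh7 (r = 0.985), the slow myosin heavy chain, which was second for Myl3 (r = 0.979) after Ppp1r1a (0.983). As the largest values of a search over so many genes, such r run high by selection. Without Sham replicate 1 and HLI replicate 3, the r with Myh7 was 0.912 for Myl2 and 0.892 for Myl3. General fibre markers were nearly as close over the 10 libraries. Acta1 had an r of 0.97 with Myl2 and 0.937 with Myl3, and Ckm had 0.954 with each. Without the same libraries left out for Myh7, Ckm had 0.778 with Myl2 and 0.892 with Myl3. Crat, of carnitine metabolism, was second for Myl2 (0.984). For the troponins these were Rfk (0.991) and Tmod4 (0.988), a thin-filament capping protein of muscle, for Tnnc1, Camk2b (0.971), a calcium-dependent kinase, and Birc2 (0.957) for Tnni1, and Nipsnap2 (0.976) and Cd59a (0.973) for Tnnt1. Gpc4 (0.981) and Tceal7 (0.973) were nearest to Casq2. For the rest they were Rbm24 (0.991), a muscle splicing factor, and Slc2a12 (0.987) for Atp2a2, Afdn and Pde7b (0.949 each) for Myoz2, Dmac2 (0.991) and Dusp18 (0.985) for Mb, and Mapkapk5 (0.978) and Gps2 (0.955) for Tpm3.

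Other genes of slow and oxidative fibres gave 0 calls among 15, with 4 log2 fold changes above 0, 11 below and a median of -0.17. At an unadjusted p under 0.05, 2 of the 15 counted (Ldhb and Fabp3), both lower in HLI. The share of all genes at that level was 16.9%, with 6.15% lower in HLI. Myh7 had 25.0 CPM in HLI replicate 3 and 307 to 790 CPM across HLI replicates 1, 2, 4 and 5, against 296 to 790 CPM in Sham; its log2 fold change was -0.59 (SE 0.60, edgeR adjusted p = 0.57). Myh2, the heavy chain of fast oxidative fibres, had 2398 ± 875 CPM in HLI and 2964 ± 319 CPM in Sham (SD, n = 5 each). Ldhb, the oxidative form of lactate dehydrogenase, had 111 ± 40.1 and Fabp3, a fatty acid carrier, 258 ± 64.1 CPM in HLI, against 186 ± 42.0 CPM of Ldhb and 365 ± 61.0 CPM of Fabp3 in Sham.

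Genes that switch the slow programme on or off showed 0 calls either way. At an unadjusted p under 0.05 there were 3 of 27 activators, all lower in HLI, and 0 of 13 repressors. The share of all genes at that level was 16.9%, with 6.15% lower in HLI. The 27 genes listed as activators include calcineurin, NFAT, MEF2 and PGC-1 genes, and also Rcan1 (log2 fold change -0.55), whose product inhibits calcineurin. Of these 27, 8 had a log2 fold change above 0 and 19 below, with a median of -0.17. In 1 of the 27, all HLI libraries lay below all Sham libraries, against 0.873% of all genes. This was Ppara, a nuclear receptor of fat oxidation, at 4.16 ± 0.930 CPM in HLI and 6.83 ± 1.02 CPM in Sham (log2 fold change -0.72, SE 0.19, edgeR adjusted p = 0.29). Esrrb, a related orphan receptor, was at 5.61 ± 1.94 CPM in HLI and 10.1 ± 2.65 CPM in Sham. Ppargc1a, the coactivator PGC-1α, was at 23.9 ± 9.13 CPM in HLI and 27.8 ± 2.64 CPM in Sham. Of 13 repressors of the slow programme or factors of the fast one, 3 were above 0 and 10 below, with a median of -0.23, and those with the smallest unadjusted p were Bhlhe41 (-0.45, SE 0.21) and Eya1 (-0.42, SE 0.20).

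Markers of other cells and fibre states were read in the same libraries, and their part in the slow gene values was not tested. Each list gave 0 calls by the edgeR test. At an unadjusted p under 0.05 it counted 4 of 10 general fibre, 5 of 7 embryonic and 2 of 4 heart markers. The heart markers counted, Tnnt2 and Myl4, are also among the embryonic ones. For the rest it counted 8 of 14 macrophage, 4 of 10 fibroblast and 1 of 10 endothelial markers. It counted 2 of 10 smooth muscle and 0 of 7 adipocyte markers. The share of all genes at that level was 16.9%, with 6.15% lower and 10.7% higher in HLI. The 10 general fibre markers were all below 0 with a median log2 fold change of -0.51, as in Cacna1s (-0.54) and Tcap (-0.65). The 7 tested of 8 markers of embryonic and new fibres were all above 0 with a median of 2.38, as in Myog (1.6005) and Tnnt2 (2.54), and their sums ran from 1026 to 2310 CPM in HLI and 335 to 1921 CPM in Sham. Of 10 heart markers 4 were tested, 3 above 0, with a median of 1.22, and of these Tnnt2, Myl4 (2.38) and Actc1 are also markers of new fibres. The 14 macrophage markers were all above 0 with a median of 0.85, as in Gpnmb (2.04) and Mpeg1 (1.78). Of 10 fibroblast markers 9 were above 0 with a median of 0.27, as in Postn (2.44) and Col3a1 (1.05), and their sum was highest in HLI replicate 3, the library lowest in Myl2 and Myl3, at 24358 CPM, against 5913 to 14780 CPM for the rest of HLI and 8250 to 11490 CPM in Sham. Endothelial markers had a median of 0.13 (6 of 10 above 0, with Cldn5 at 0.53 and Tie1 at 0.29), with sums of 1348 to 1972 CPM in HLI and 1225 to 1948 CPM in Sham. Smooth muscle and pericyte markers had a median of -0.19 (4 of 10 above 0, with Myh11 at -0.53 and Mcam at 0.41), with sums of 3480 to 4710 CPM in HLI and 4252 to 4653 CPM in Sham. All 7 adipocyte markers were below 0, with a median of -0.40, as in Retn (-0.70) and Lep (-1.02), with sums of 419 to 925 CPM in HLI and 655 to 909 CPM in Sham.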

How the data were processed

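Per the file headers, the authors deposited 1 table that gives each gene an estimated count and a TPM in every sample. The estimated counts were deposited without normalization (93.4% are whole), and the deposited TPM values are relative to transcript length and library. HISAT2 2.0, Bowtie 0.12.2 and the build mm8 appear, with no role, among the submitters' processing notes. The sources used here give no counter, annotation or strand setting. The protocol text mentions adipose material and the series text cells, so the extraction is uncertain.

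Counts were rounded, kept by filterByExpr (minimum count 10, total 15; 13404 genes), scaled by TMM and tested with edgeR 4.0.16 in R 4.3.3, HLI over Sham, with no covariate; SE is that of this fit. Pair ratios were log2 of TPM, tested over the 252 assignments of 10 samples. DESeq2 1.42.0 and limma 3.58.1 (on log2(TPM + 1) and log2(TPM + 0.1)) served as alternatives. The edgeR step was tested on simulated data. Members, lists, pairs and the rule for named genes (the members, their counterparts, Myh7, Myh2, Ppargc1a, the 2 genes of smallest p per list and the 2 most alike per member) were chosen with earlier results of these data known; implied length was added after seeing the data. Promoters are RefSeq's on GRCm38.p6, a build other than mm8, and are used by symbol.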

Additional observations from a re-analysis of the deposited data

Results flagged for a closer look

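In 38 groups of 5 libraries (10 genes in CPM and 9 log2 ratios, in HLI and in Sham), 9 had 1 library far from the other 4, and chance flags about 1 in 20. The groups share the same 10 libraries, and each ratio reuses a member also read in CPM. They are therefore not independent, and the count of 9 cannot be weighed against that rate. HLI replicate 3 was far below for Myl3, at 38.5 CPM, and for the log2 ratios of Myl2 to Mylpf and Myl3 to Myl1, at -7.00 and -7.21. HLI replicate 1 was far below for Tnnt1 to Tnnt3, at -6.54. Sham replicate 1 was far above for Casq2, at 152 CPM, for Tnnt1 to Tnnt3, at -5.72, and for Myoz2 to Myoz1, at -2.02, and far below for Myl3 to Myl1, at -5.43, and Tnnc1 to Tnnc2, at -5.44.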

How the results depend on the processing

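The count of genes called was 0 in the main analysis, 54 without replicate 1 of both groups and 42 with DESeq2, and 0 under each other setting run (replicate block, DESeq2 size factors, no filter, limma on TPM, each library left out). The count of slow fibre genes called was 0, and 1 (Casq2) without replicate 1 of both groups. Tnni1 lay near 0 and turned sign under the replicate block (-0.0715), DESeq2 size factors (-0.0027), DESeq2 (-0.0027) and TPM scaled by median of ratios (-0.0868), with a range of -0.18 to 0.21 when 1 library was left out; the cause was not tested. The other 9 genes and the 9 ratios kept their direction in all settings run, and the ratios of Myl2 (-0.90), Myl3 (-1.12) and Casq2 (1.44) passed only without Sham replicate 1, the library that broke their separation. Unscaled TPM moved the median of all genes to 0.19, and relative to it the members' median was -0.42. Replicate numbers were not shown to pair samples: the correlation of same-numbered deviations ran from -0.0090 to 0.28, and the replicate block left 0 genes called, with 6 members at an unadjusted p under 0.05 in place of 3, while the share of all genes at that level was 22.3% in place of 16.9%. TPM scaled by median of ratios was added after seeing the data.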
